A study of Mus musculus with 9 samples.

Results

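T cells of the deep cervical lymph nodes (dCLN) and the superficial cervical lymph nodes (sCLN) were compared inside each of 2 genotypes, wild type (WT) and 5xFAD, by the T-cell receptor (TCR) chains they carried. The comparison used the 4 libraries titled with 1 cervical node and no CD4 label, of 9 in the series, and 2 inguinal libraries (iLN) entered the statistical fit and are quoted as a further reference. Barcodes holding 1 productive beta chain (TRB) together with 1 or 2 productive alpha chains (TRA) were taken as cells, which gave 7418 cervical cells: 1227 in dCLN WT, 1123 in sCLN WT, 2742 in dCLN 5xFAD and 2326 in sCLN 5xFAD. A difference between the nodes is described as a result only where it had the same direction in both genotypes.

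All mice were females of 10 to 11 months, perfused with buffer before the nodes were taken, and no treatment was given in the labels. The 5xFAD mouse is a transgenic model of familial Alzheimer's disease whose transgenes are driven by a neuronal promoter, and the WT mice carry none. Cells were tagged with hashtag antibodies and combined into composite samples. The tables hold no hashtag, the labels do not give the number of animals behind a library or whether the deep and superficial nodes came from the same animals, and each node had 1 library per genotype. Only receptor chains were in the tables, so the node labels could not be checked against marker genes.

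Each alpha beta T cell assembles its receptor by joining V and J segments (and a D segment in the beta chain), with bases trimmed at the joins and others added without a template by terminal deoxynucleotidyl transferase. The stretch across the join, from the conserved cysteine to the conserved phenylalanine, is called the junction and contacts the antigen peptide. Cells that share both junctions are usually descendants of the same T cell, and repeated junctions made with few added bases can arise in separate cells. Deep cervical nodes receive fluid and antigens from the brain and its meninges, and superficial cervical nodes drain mainly the skin and mucosa of the head.

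Cells with the same V and J assignment and the same junction bases in both chains (TRAV by subgroup) were joined into a clonotype, and clonotypes numbered 1173 in dCLN WT, 1086 in sCLN WT, 2726 in dCLN 5xFAD and 2284 in sCLN 5xFAD. The median cell had 8 to 10 TRB and 5 to 6 TRA molecules, counted by unique molecular identifiers (UMIs), in every cervical library. The 5xFAD libraries held about as many molecules per chain as the WT ones but more cells, so their shares carried narrower intervals. TRA chains matched their reference V gene over its whole aligned length in 73.2% and 74.9% of clonotypes in dCLN and sCLN WT, and in 65.7% and 65.3% in dCLN and sCLN 5xFAD. These shares were close within a genotype and further apart between genotypes, and the node differences below are taken inside genotype. Unless called approximate, intervals below are exact 95% intervals (Clopper-Pearson for shares, Poisson for counts). All intervals cover counting error only.

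The segments on which the usage results turn are shown first, because each is short and enters the junction directly. TRAJ16, the segment with the clearest difference, lies in GRCm38 at chr14:54203134-54203194 on the plus strand, TRAJ53 at chr14:54162644-54162709 on the plus strand, and TRBJ1-3 at chr6:41534323-41534376 on the plus strand. All are J gene segments, each a coding exon; for TRBJ1-3 the printed bases are the 50 of the annotated transcript. Sequences were read from the GENCODE annotation and GRCm38, and capitals mark the bases that can enter the junction, through the conserved phenylalanine codon.
TRAJ16: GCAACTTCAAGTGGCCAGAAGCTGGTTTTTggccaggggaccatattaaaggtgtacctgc
TRAJ53: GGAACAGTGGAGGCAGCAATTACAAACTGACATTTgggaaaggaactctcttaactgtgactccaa
TRBJ1-3: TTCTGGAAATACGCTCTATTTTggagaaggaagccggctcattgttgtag

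No difference in V or J usage between the nodes was called. In the fit of clonotype counts on node and genotype over 6 libraries (edgeR quasi-likelihood test with Benjamini-Hochberg adjustment), 0 of 94 features (0%) passed an adjusted p of 0.05, and 2 of 94 (2.13%) had an unadjusted p under 0.05. DESeq2 with the same model called 0 features and had 0 with an unadjusted p under 0.05. The spread in this fit was that of node differences over genotypes, with 2 residual degrees of freedom before sharing information over features, and the p-values do not measure variation between animals. With so few libraries, the absence of calls does not show that usage was equal.

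Of the 82 features averaging 20 or more clonotypes per cervical library, 31 (37.8%) differed in the same direction in both genotypes, 14 (17.1%) higher and 17 (20.7%) lower in dCLN. Most of the 82 features thus differed in opposite directions in the genotypes. Alpha J genes, the largest class, made up most of the 31, with 19 of 37 (51.4%). The other classes had 5 of 12 TRBJ genes, 5 of 19 TRBV genes and 2 of 14 TRAV subgroups. The log2 ratios of dCLN to sCLN share, computed with a pseudocount of 0.5 clonotypes, had a Pearson correlation of -0.14 and a Spearman correlation of -0.20 between genotypes across the 82 features. Across the 37 TRAJ genes these correlations were 0.13 and -0.03. Features are not independent replicates, since shares within a segment class sum to the whole library, and this is a description. The typical size of a ratio was small, with a median absolute log2 value of 0.20 in WT and 0.14 in 5xFAD.

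**Figure D1:**
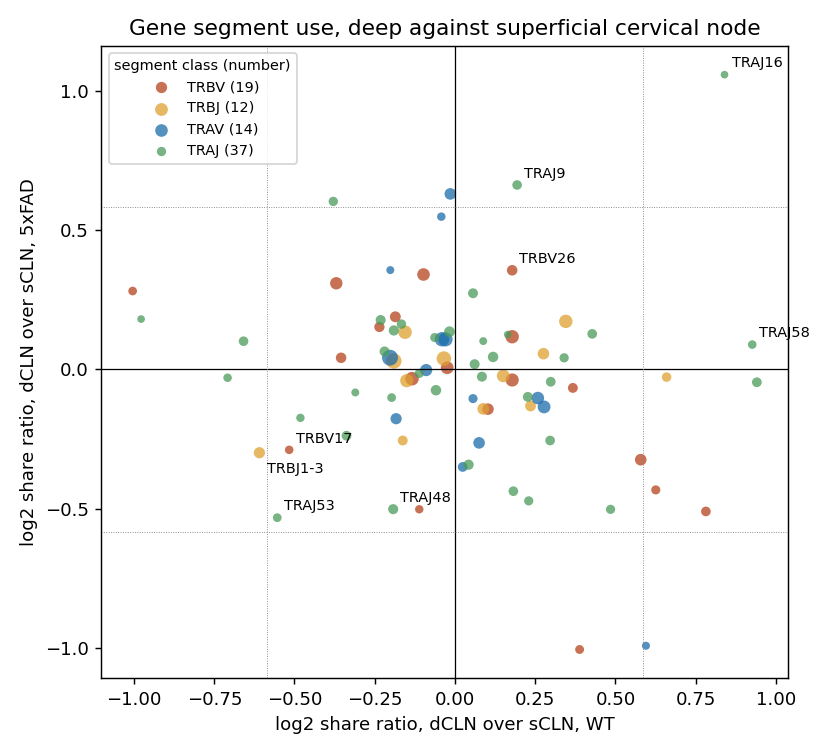
Log2 ratio of the dCLN to the sCLN share of clonotypes in WT (x axis) and 5xFAD (y axis), 1 point per feature, with point colour for the segment class, point size growing with the mean number of clonotypes and dotted lines at 1.5-fold. Most points lie near the origin, the median absolute ratio being 0.20 in WT and 0.14 in 5xFAD, and TRAJ16 stands apart at 0.84 and 1.06.

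A ratio of at least 1.5-fold was reached in WT by 7 features higher in dCLN (8.54%) and 5 lower (6.1%), and in 5xFAD by 4 higher (4.88%) and 2 lower (2.44%). In both genotypes it was reached by 1 feature higher in dCLN, TRAJ16 (1.22%), and by 0 lower (0%). TRAJ16 took 14 of 1173 clonotypes in dCLN WT (1.19%, interval 0.654 to 1.99) and 7 of 1086 in sCLN WT (0.645%, 0.260 to 1.32). It took 43 of 2726 in dCLN 5xFAD (1.58%, 1.14 to 2.12) and 17 of 2284 in sCLN 5xFAD (0.744%, 0.434 to 1.19). In each genotype dCLN was above sCLN, and the inguinal library of that genotype lay between, at 0.903% in WT and 0.876% in 5xFAD. The counting intervals of the nodes overlapped in both genotypes. The fitted log2 difference was 1.01 with a standard error of 0.42, edgeR's unadjusted p was 0.0167 and its adjusted p was 0.983.

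TRAJ16 clonotypes were spread over many alpha V subgroups and were not a single clone. They paired with 8 subgroups in dCLN WT, 5 in sCLN WT, 13 in dCLN 5xFAD and 9 in sCLN 5xFAD, and every one carried the same TRAJ16 allele. The 43 clonotypes of dCLN 5xFAD had 36 distinct junction amino acid sequences, and TRAV6 was the most frequent partner, with 13. In sCLN WT some TRAJ16 clonotypes were repeated, among them the largest clone, of 3 cells, and the 7 clonotypes made up 10 cells, against 14 clonotypes and 15 cells in dCLN WT. With cells counted, the log2 ratio in WT was 0.43, under the 1.5-fold line, and 0 features passed that line in both genotypes. TRAJ16 also stood close to the abundance limit, with a mean of 20.25 clonotypes.

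Of the other features higher in dCLN in both genotypes, TRAJ9 had log2 ratios of 0.19 in WT and 0.66 in 5xFAD. Its share was 2.64% in dCLN WT and 2.30% in sCLN WT, and 3.41% in dCLN 5xFAD and 2.15% in sCLN 5xFAD. The WT libraries held 2 TRAJ9 alleles and the 5xFAD libraries 1. TRBV26 followed with 4.18% against 3.68% in WT and 4.55% against 3.55% in 5xFAD, dCLN first in each pair. TRBJ1-1, the J segment used in about 1 in 10 beta chains here, took 13.5% against 10.6% in WT and 10.4% against 9.24% in 5xFAD. TRAJ18, the alpha J segment of the invariant natural killer T (iNKT) cell receptor, took 3.24% against 2.39% in WT and 2.97% against 2.71% in 5xFAD. TRAV11, the V subgroup of that receptor, stood the other way, with 3 clonotypes against 5 in WT and 2 against 5 in 5xFAD. For TRAJ58 the log2 ratio was 0.93 in WT and only 0.09 in 5xFAD, so its size rested on the WT libraries. TRAJ38, TRBV1, TRAJ47, TRBJ2-2, TRAJ15 and TRAJ49 completed the 12 named, each with at least 1 ratio below 0.20.

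Of the features lower in dCLN, TRAJ53 differed most when the smaller of its ratios in the genotypes was taken. It took 1.62% of clonotypes in dCLN WT (19 clonotypes) and 2.39% in sCLN WT (26), and 1.54% in dCLN 5xFAD (42) and 2.23% in sCLN 5xFAD (51). The log2 ratios were -0.55 and -0.53, which lie just inside the 1.5-fold line, and the fitted difference was -0.55 (standard error 0.33, edgeR adjusted p 0.983). TRBJ1-3 took 4.09% in dCLN WT and 6.26% in sCLN WT, and 4.73% in dCLN 5xFAD and 5.82% in sCLN 5xFAD, and its fitted difference was -0.42 (standard error 0.20, edgeR unadjusted p 0.0390, adjusted p 0.983). The inguinal shares of TRBJ1-3 were 4.75% and 5.60%, inside the range of the cervical libraries. TRBV17 followed with ratios of -0.52 and -0.29, TRAJ32 with -0.34 and -0.24, TRAJ48 with -0.19 and -0.50 and TRAV16 with -0.18 and -0.18. TRAJ6, TRBJ1-6, TRBV12-2, TRAJ21, TRAJ44 and TRAJ22 completed the 12.

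**Figure D2:**
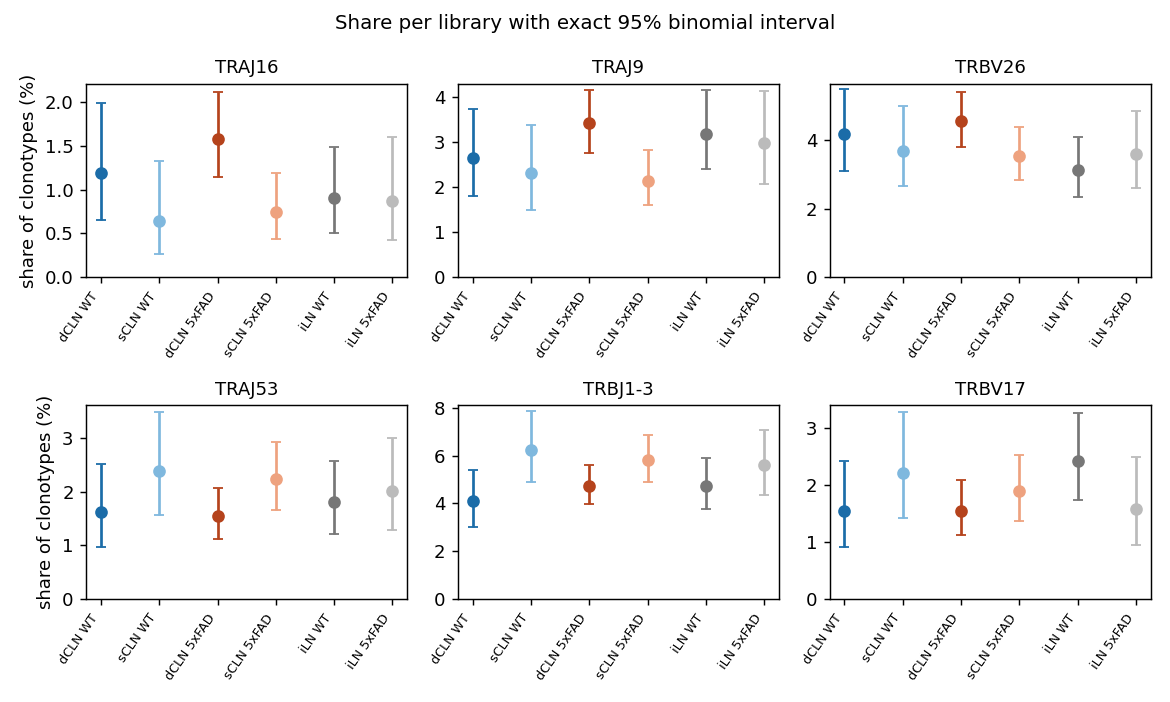
Share of clonotypes, in percent, using TRAJ16, TRAJ9, TRBV26, TRAJ53, TRBJ1-3 and TRBV17 in dCLN, sCLN and iLN libraries, with exact 95% counting intervals as bars. TRAJ16 was higher in dCLN in both genotypes (1.19% against 0.645% and 1.58% against 0.744%) and TRAJ53 and TRBJ1-3 were lower, with overlapping intervals for each of these.

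Of 11 segment lists, 4 had a summed share that differed in the same direction, all higher in dCLN, and 0 members of any list passed the edgeR threshold. TRAJ segments numbered 20 or below, which lie at the far end of the J cluster from the V genes and are reached by repeated rearrangement of the same alpha locus, summed to 25.0% in dCLN WT and 24.4% in sCLN WT, and to 25.8% and 22.3% in dCLN and sCLN 5xFAD. The sum of these TRAJ segments was 26.2% in iLN WT and 25.7% in iLN 5xFAD. Of its 13 members, 5 were higher and 2 lower in dCLN in both genotypes. TRBV23 to TRBV31 summed to 20.5% against 19.3% in WT and 20.0% against 18.3% in 5xFAD. TRAV4 and TRAV14, alpha subgroups known to be more frequent in CD4 than in CD8 T cells, summed to 17.9% against 16.2% in WT and 14.2% against 12.9% in 5xFAD, though neither member alone had the same direction in both. The J-proximal TRAV17, TRAV18, TRAV19 and TRAV21 summed to 2.98% against 2.85% and 2.82% against 2.5%, with 0 members higher and 1 lower in dCLN in both genotypes. With cells counted this sum lost the common direction, at -0.00457 points in WT. Among these 4 lists, only the low-numbered TRAJ segments in 5xFAD had node intervals that did not overlap, at 24.2 to 27.5% and 20.6 to 24.1%. The median of the mean log2 ratios was 0.13 over the members of that list and -0.01 over the 82 features.

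Junction measures with the same direction in both genotypes differed by small amounts between the nodes. Of 18 measures, 5 had the same direction in both genotypes, and 4 of these were properties of the alpha chain. TRA length, added bases and other bases are not separate evidence, since the added and the other bases sum to the junction length. Means are given without an interval. Mean TRA junction length was 13.42 amino acids in dCLN WT and 13.47 in sCLN WT, and 13.52 in dCLN 5xFAD and 13.56 in sCLN 5xFAD, lower in dCLN by 0.05 in each genotype. Mean added bases in TRA were 2.55 against 2.61 in WT and 2.73 against 2.79 in 5xFAD, with dCLN first. The node difference in added bases, -0.06 in both genotypes, was smaller than the 0.18 bases by which the 5xFAD cervical libraries exceeded the WT ones. TRA junction bases other than the added ones numbered 37.70 against 37.79 in WT and 37.82 against 37.90 in 5xFAD. Hydropathy of the central TRA residues (Kyte-Doolittle scale, higher is more hydrophobic) was -1.27 against -1.32 in WT and -1.29 against -1.31 in 5xFAD. A cysteine in the central TRB residues occurred in 0 dCLN clonotypes and in 1 sCLN clonotype of each genotype, at the limit of what these depths can show. No TRB measure other than the cysteine share had the same direction.

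**Figure D3:**
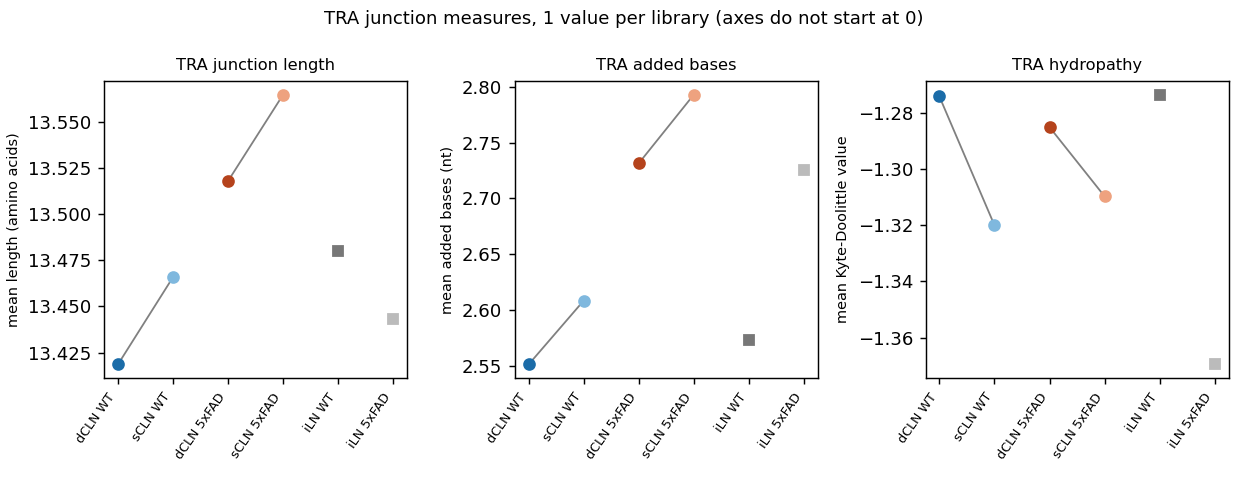
Mean alpha junction length in amino acids, mean added bases and mean hydropathy of the central residues, 1 value per library, with lines joining the nodes of a genotype and axes that do not start at 0. Length and added bases were lower in dCLN in both genotypes by 0.05 amino acids and 0.06 bases, and hydropathy was higher, -1.27 against -1.32 in WT.

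The share of cells with a second alpha chain was lower in dCLN in both genotypes, and the separate intervals of the nodes overlapped. The difference, dCLN minus sCLN, was -1.22 percentage points in WT, with an approximate interval of -3.04 to 0.56. In 5xFAD it was -1.61 points, with an approximate interval of -3.07 to -0.19. The interval of the difference thus held only negative values in 5xFAD but not in WT. The share was 4.48% (3.39 to 5.79) in dCLN WT against 5.70% (4.42 to 7.22) in sCLN WT. In 5xFAD it was 6.38% (5.50 to 7.36) in dCLN against 8.0% (6.93 to 9.17) in sCLN. Barcodes with 2 or more TRB chains, which were set aside as possible doublets, stood the other way, at 2.86% (2.22 to 3.64) against 1.45% (0.997 to 2.05) in WT and 3.99% against 3.91% in 5xFAD. The share of barcodes with paired chains was 56.9% against 52.5% in WT but 58.2% against 66.6% in 5xFAD. Capture of chains therefore differed between the libraries, and its part in the share of cells with 2 alpha chains was not tested.

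Few clonotypes were found in both nodes of a genotype. WT had 3, which is 2.36 per 1000000 clonotype pairs (0.486 to 6.88), 0.256% of the dCLN and 0.276% of the sCLN clonotypes. In 5xFAD there were 0 among more pairs, where a count of 0 allows up to 0.482 per 1000000 clonotype pairs. With at least 2 UMIs per chain the WT count was 1, and with barcodes of extra chains kept the 5xFAD count was 1. The nodes shared 3 barcodes in WT and 26 in 5xFAD, and 0 of these carried the same clonotype in both libraries. The WT clonotypes are printed because they are the only clonotypes counted in both nodes of a genotype, with capitals for the added bases.
WT shared TRBV13-1 and TRBJ2-7: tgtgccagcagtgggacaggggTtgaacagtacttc
its alpha TRAV11 and TRAJ18: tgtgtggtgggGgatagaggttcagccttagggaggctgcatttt
WT shared TRBV15 and TRBJ1-4: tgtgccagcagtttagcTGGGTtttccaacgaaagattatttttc
its alpha TRAV13 and TRAJ23: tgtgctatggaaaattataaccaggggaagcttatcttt
WT shared TRBV26 and TRBJ2-7: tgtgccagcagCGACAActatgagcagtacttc
its alpha TRAV12 and TRAJ24: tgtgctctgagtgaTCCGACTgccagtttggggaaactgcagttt

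The first of these has the alpha chain of iNKT cells, TRAV11 with TRAJ18 and a junction of 15 amino acids. It has 1 added base in the beta and 1 in the alpha junction, and was seen in 1 cell of dCLN and 2 of sCLN. It thus gave more of the 4 same-clonotype cell pairs between the WT nodes than either other clonotype. Whether its cells descend from the same T cell was not tested. The second has 5 added bases in the beta and 0 in the alpha junction, and the third 6 and 7, each in 1 cell per node. Cells with the iNKT-type alpha chain numbered 3 in dCLN WT and 6 in sCLN WT. In 5xFAD 0 were found in either node, which allows up to 0.109% of dCLN and 0.129% of sCLN cells. Cells with the alpha chain of mucosal-associated invariant T cells, TRAV1 with TRAJ33, numbered 5 of 1227 in dCLN WT and 4 of 1123 in sCLN WT, and 3 of 2742 and 2 of 2326 in dCLN and sCLN 5xFAD. Their shares, 0.407% against 0.356% and 0.109% against 0.0860%, were marginally higher in dCLN in both genotypes on counts too small to separate.

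By the beta chain alone, more was shared. Identical TRB nucleotide junctions with the same V and J numbered 4 in WT and 5 in 5xFAD, and identical amino acid junctions 6 in WT (4.77 per 1000000 pairs) and 20 in 5xFAD (3.24 per 1000000 pairs). The amino acid rate was of like size between nodes of different genotypes, at 3.76 for dCLN 5xFAD with sCLN WT and 2.26 for dCLN WT with sCLN 5xFAD. By nucleotides the rate was 3.16 between the WT nodes and 0.805 between the 5xFAD nodes. Between genotypes it was 0.340 for dCLN 5xFAD with sCLN WT and 0.375 for dCLN WT with sCLN 5xFAD, on 1 shared chain each. The 5 of 5xFAD are shown, again with added bases in capitals, because none came with a shared alpha chain. Only the alpha chain with more UMIs in each cell was compared.
TRBV5 and TRBJ1-1: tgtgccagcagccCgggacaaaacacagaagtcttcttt
TRBV5 and TRBJ2-2: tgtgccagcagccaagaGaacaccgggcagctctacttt
TRBV12-1 and TRBJ1-2: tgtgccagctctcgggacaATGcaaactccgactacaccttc
TRBV1 and TRBJ2-5: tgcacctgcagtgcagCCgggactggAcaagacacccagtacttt
TRBV1 and TRBJ1-5: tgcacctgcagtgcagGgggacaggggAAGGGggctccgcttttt

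These carry 1, 1, 3, 3 and 6 added bases. Over all TRB chains shared at the amino acid level, the mean number of added bases was 3.42 in WT against 3.91 in chains not shared, and 2.90 against 4.09 in 5xFAD. At most 2 bases had been added in 50.0% of shared and 34.1% of other chains in WT, and in 47.5% and 30.0% in 5xFAD. The mean was lower for shared chains in both genotypes, on 6 distinct amino acid junctions in WT and 20 in 5xFAD, each counted once per node.

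Clonal repeats were more frequent within a cervical node than between the deep and superficial nodes of a genotype. Pairs of cells with the same clonotype numbered 74.5 per 1000000 cell pairs within dCLN WT (56.2 to 96.7) and 60.3 within sCLN WT (42.7 to 82.8), against 2.90 between the nodes (0.791 to 7.43), a ratio of 25.6 and 20.8. With at least 2 UMIs per chain the rate between the WT nodes was 1.62, and the ratios were 44.8 and 39.7. In 5xFAD there were 4.26 per 1000000 within dCLN (2.43 to 6.91) and 15.5 within sCLN (11.2 to 21), and 0 between. Over a floor of 3 pairs between the nodes, the ratio was 9.05 for dCLN and 33.0 for sCLN. These ratios leave out the counting error of the within-node rates and are not strict lower bounds. By TRB nucleotides the rate between the 5xFAD nodes was 0.941, and the ratios were 5.66 and 17.7. With barcodes of extra chains kept the rate between these nodes was 0.137, and the ratios were 31.9 and 112. The direction was the same in both genotypes. By both chains, 0 clonotypes were shared by dCLN WT with sCLN 5xFAD and 0 by dCLN 5xFAD with sCLN WT. Whether the nodes of a genotype came from the same animals was not tested, and the labels do not give the animals behind a library.

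**Figure D4:**
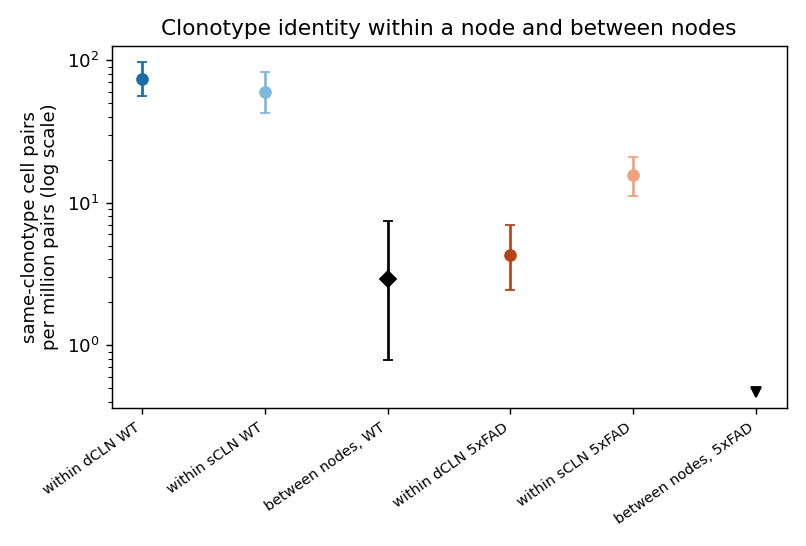
Same-clonotype cell pairs per 1000000 cell pairs, on a log axis, within dCLN, within sCLN and between the nodes for each genotype, with exact Poisson 95% intervals as bars and a triangle for the limit that a count of 0 allows. Within-node rates were 74.5 and 60.3 in WT and 4.26 and 15.5 in 5xFAD, above the between-node rate of 2.90 in WT and the limit of 0.470 in 5xFAD.

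Clones were small in every library. Repeated clonotypes, seen in at least 2 cells, totalled 52 in dCLN WT, 36 in sCLN WT, 16 in dCLN 5xFAD and 42 in sCLN 5xFAD. The largest held 3 cells in the WT nodes and 2 cells in the 5xFAD nodes. The cells of a clone had barcodes that differed at 8 or more of 16 bases. The 2 largest clones of dCLN WT both used TRBV26, a segment also higher in dCLN by clonotype count, and 1 cell of the first was seen in iLN WT. The largest clone of sCLN WT used TRAJ16, and 2 cells of it were also seen in iLN WT. Their beta junctions follow, with added bases in capitals.
dCLN WT, TRBV26 and TRBJ1-1: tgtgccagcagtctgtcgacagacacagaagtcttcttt
dCLN WT, TRBV26 and TRBJ1-4: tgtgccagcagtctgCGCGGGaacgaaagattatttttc
sCLN WT, TRBV29 and TRBJ1-4: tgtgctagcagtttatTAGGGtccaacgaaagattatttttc

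Thinned to 1123 cells, the libraries held 1078 clonotypes in dCLN WT, 1086 in sCLN WT, 1120 in dCLN 5xFAD and 1113 in sCLN 5xFAD. Diversity therefore had no common direction: dCLN held fewer clonotypes than sCLN in WT and more in 5xFAD. Median TRB UMIs in the cells of clones were 7, 9, 8 and 6 in dCLN WT, sCLN WT, dCLN 5xFAD and sCLN 5xFAD, against 8, 9, 10 and 10 in all cells.

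**Figure D5:**
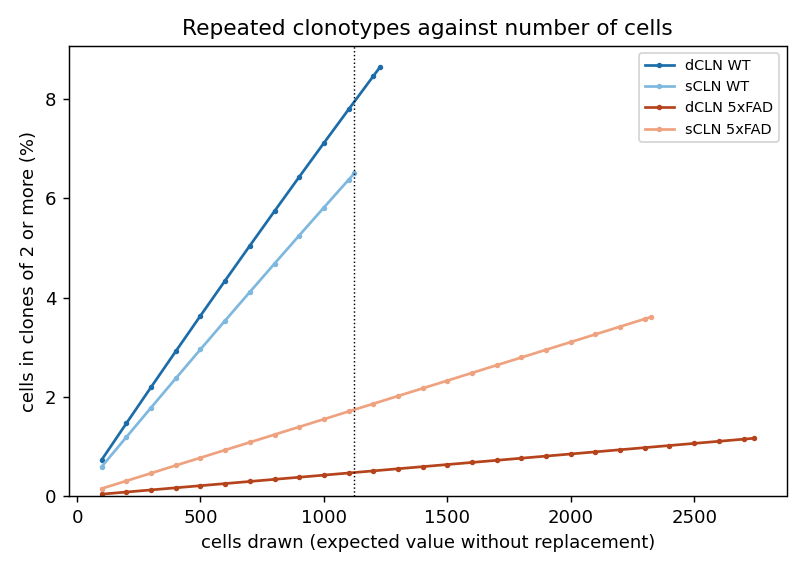
Expected percent of cells in clones of 2 or more cells against the number of cells drawn without replacement from each cervical library, 1 line per library and a dotted line at 1123 cells. At 1123 cells the value was 7.94% in dCLN WT and 6.50% in sCLN WT, and 0.478% in dCLN 5xFAD and 1.74% in sCLN 5xFAD.

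An index of difference in segment usage, with all classes pooled, was lower between the nodes of WT than between those of 5xFAD. The Pearson chi-square per degree of freedom over the 82 features, near 1 for 2 random samples of the same repertoire, was 1.13 between the WT nodes and 1.74 between the 5xFAD nodes. By class it was 1.52 for TRBV, 1.67 for TRBJ, 0.602 for TRAV and 0.965 for TRAJ in WT, and 2.51, 0.796, 2.58 and 1.33 in 5xFAD. Between genotypes it was 1.65 for dCLN and 2.71 for sCLN. The index grows with the number of clonotypes, which was larger in 5xFAD, so its values are set beside each other without a test. The median absolute log2 ratio, which also depends on the number of clonotypes, stood the other way, at 0.20 in WT and 0.14 in 5xFAD. Which genotype had the closer nodes is therefore not settled.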

How the data were processed

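Single-cell TCR libraries from lymph node cells were deposited as 1 table per library with 1 row per contig. The submitters' processing notes name Cell Ranger 6.0.1, Seurat 4.1.0 and mm10, without a role. V, D and J calls are in IgBLAST format per the file headers, and other steps are not given in the sources used here. The deposited counts are UMIs and reads per contig, unnormalized, per the file headers. V identity is a deposited fraction, and the other deposited values are lengths in bases.

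Contigs with no junction were dropped, the TRA chain with more UMIs was kept, and possible doublets were removed only as barcodes holding at least 2 TRB or at least 3 TRA chains. Clonotypes per TRBV, TRBJ and TRAJ gene and TRAV subgroup were counted, with at least 10 over 6 libraries (94 of 96 features), and tested with edgeR 4.0.16 in R 4.3.3 (DESeq2 1.42.0 as an alternative) on node and genotype, with total clonotypes as library size and a Benjamini-Hochberg threshold of 0.05. The fit was tested on simulated counts. Other values are given without a test: a two-sided exact sign-flip permutation test over 2 genotypes cannot give a p below 0.5, and the 6-library fit was used for segment usage only. The thinned values are expectations with no random draws. Limits for a count of 0 use 3 counts. Named features are the 12 per direction with the largest smaller ratio over genotypes; the clonotypes printed are those shared by the nodes and the largest clones of the WT nodes (in 5xFAD the largest were tied at 2 cells). The members, lists and rules were chosen with earlier results of these data known. The CD4-titled and mixed libraries were not used here. Alternatives covered the test, scaling, filter, counted unit, ambiguous calls, extra chains, UMI minimum, clonotype definition and left-out libraries.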

Additional observations from a re-analysis of the deposited data

Results flagged for a closer look

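The share of cells in clones of 2 or more, thinned to 1123 cells, differed between nodes in opposite directions: dCLN minus sCLN was 1.44 percentage points in WT and -1.27 percentage points in 5xFAD. Unthinned, the shares were 8.64% (7.13 to 10.4) in dCLN WT, 6.50% (5.13 to 8.10) in sCLN WT, 1.17% (0.800 to 1.64) in dCLN 5xFAD and 3.61% (2.89 to 4.45) in sCLN 5xFAD. Each value comes from 1 library, and the difference between genotypes was not tested.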

How the results depend on the processing

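The count of usage calls by edgeR was 0 under every alternative run, including DESeq2, and 0 to 0 when each library was left out in turn. Leaving out a cervical library leaves that node with 1 library, assumed to vary like the others. The lowest adjusted p over these settings was 0.0798, without sCLN WT. The fit compares the nodes with genotype as the block. No paired analysis was possible by replicate number, because the cervical libraries carry none. Features past 1.5-fold in both genotypes numbered 1, against 2 (TRAJ16 and TRAJ53) at the lower limit of 5 to 4, and 0 at 2-fold, with cells counted, with a mean minimum of 40 clonotypes and with at least 2 UMIs per chain, where the TRAJ16 mean was 19.75, under the limit of 20. Shared clonotypes in 5xFAD numbered 0, against 5 by TRB nucleotides, 20 by TRB amino acids and 1 with barcodes of extra chains kept. In WT they numbered 3, against 6 by TRB amino acids and 1 with at least 2 UMIs per chain. The clone share in 5xFAD, dCLN minus sCLN, was -2.44 points unthinned. Mean differences over genotypes, with cells counted, all chains and at least 2 UMIs in turn, were -0.0486, -0.0478 and -0.0522 for TRA length (main -0.0471), -0.0502, -0.0746 and -0.0465 for TRA added bases (main -0.0593), and -0.0956, -0.0689 and -0.110 for other TRA junction bases (main -0.0820), which with all chains no longer had the same direction in both genotypes. TRA hydropathy was 0.0168 with all chains (main 0.0353), and TRBV23 to TRBV31 1.79 points with at least 2 UMIs (main 1.41). The cause of these shifts was not tested. Of the 24 named features, 0 turned direction in the mean and 3 (TRAJ21, TRAJ58 and TRBJ2-2) lost the same direction in both genotypes under an alternative. The J-proximal TRAV sum lost the common direction with cells counted. The alternatives for features with the same direction, for same-clonotype pairs and for cells with extra chains were chosen after seeing the data. Depth limits rare segments and invariant chains most, at 14 or fewer clonotypes or cells in a WT library.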
